A study of Homo sapiens with 6 samples.

Results

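Lysine methylation of histones is set by methyltransferases, called writers, and removed by demethylases, called erasers. The genes described here are the protein-coding rows of the count table whose symbol starts with KMT, KDM, SETD or SUV39H, together with EZH1, EZH2, EHMT1, EHMT2, NSD1, NSD2, NSD3, DOT1L and ASH1L, without the Y chromosome. This rule reads names and not values. It gave 49 genes, 30 writers and 19 erasers, of 19942 protein-coding genes and 60664 genes in the table, and 17 non-coding genes with such names (pseudogenes, antisense and divergent transcripts) stayed outside it.

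The data were polyA RNA sequencing of U-2 OS, a polyploid human osteosarcoma cell line grown in culture. SFPQ, an RNA- and DNA-binding protein of the nucleus, was depleted with siRNA (siSFPQ) and compared with a control siRNA (siControl), each given at 30 nM by lipofection, with 3 libraries per condition and no other allele or agent in either. The comparison asked which transcripts change when U-2 OS cells lose SFPQ, which the study examined as a suppressor of R-loops, structures in which RNA pairs with a DNA strand. A knock-down in 1 cell line is transient and partial, and the p-values here measure the spread between these 3 libraries per condition.

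The control libraries held 46142855 to 47119203 counts in total and the SFPQ-depleted libraries 43469321 to 45543610, where 3 counts, the smallest level read as signal, are 0.0637 to 0.069 CPM (counts scaled to library size). SFPQ itself had 22381, 23139 and 21811 normalized counts in siControl and 3238.5, 3780.1 and 3108 in siSFPQ, a log2 fold change of -2.73 ± 0.05 (SE, adjusted p = 6.34e-30, edgeR). Of 9 markers of the osteoblast lineage 6 reached 1 CPM in at least 1 library, with a summed level of 2906 to 3180 CPM in siControl and 2330 to 2393 CPM in siSFPQ. COL1A1 gave most of it and RUNX2 was present, while SP7, BGLAP and IBSP were at or near 0. All 4 epithelial markers reached 1 CPM in at least 1 library and their sum was 328 to 344 CPM in siControl and 727 to 796 CPM in siSFPQ. The keratins KRT8 (mean of 199.8 CPM in siControl and 430.0 CPM in siSFPQ) and KRT18 (129 and 331 CPM) gave nearly all of that sum. EPCAM averaged 5.09 and 4.50 CPM (log2 fold change of -0.18, adjusted p = 0.242) and CDH1 lay between 0.657 and 2.07 CPM. None of 3 leukocyte and 2 endothelial markers reached 1 CPM in any library. The part of these marker differences in the results was not tested, and in bulk RNA fewer cells with a transcript cannot be told apart from less of it per cell.

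Methyl groups on lysines of histones H3 and H4 are bound by reader proteins, and the position decides which readers come. Methylation of H3K4 marks promoters and enhancers, H3K36 and H3K79 methylation lies over transcribed genes, and methylation of H3K9, H3K27 and H4K20 is known for silent or compact chromatin. Writers with a SET domain use S-adenosylmethionine as methyl donor, while DOT1L, which writes H3K79, has no SET domain. Erasers are either flavin-dependent amine oxidases (KDM1A and KDM1B) or iron- and oxoglutarate-dependent enzymes with a Jumonji domain.

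Writers and erasers of histone methylation moved in both directions after SFPQ knock-down, by small amounts. Both H3K27 writers and 3 of 5 H3K36 writers fell, the latter near the share of falls among protein-coding genes over 100 kb. All 3 H3K27 erasers rose, but the call of KDM7A was lost without siControl replicate 1 or siSFPQ replicate 2. H3K4 writers gave 4 rises and 0 falls, H3K36 erasers 1 and 0, and SET proteins of other or unsettled substrate 0 and 2. The remaining roles held both rises and falls. The widest changes were the falls of KDM4C and ASH1L and the rises of SETD7, KDM8 and KDM1B. Of 48 genes tested, 17 rose, 14 fell and 17 did not pass. A rise or fall means an adjusted p below 0.05 in the quasi-likelihood test of edgeR, adjusted by Benjamini-Hochberg over the 29022 genes tested. These shares of 35.4% and 29.2% stand beside 28.0% and 30.9% of the protein-coding genes tested, and beside 22.4% and 22.1% of all genes tested. The shares were thus close to those of protein-coding genes at large. The median log2 fold change was 0.05 (range -1.02 to 0.87) against 0.02 over all genes tested.

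No member passed the study's further limit of 1.5 on the log2 fold change, which 5.54% of all genes tested passed upwards and 4.77% downwards. With edgeR and with DESeq2 the number at an unadjusted p under 0.05 past that limit was also 0. Normalized counts of the conditions did not overlap in 33 of 48 genes. The same held for 65.2% of protein-coding genes and 52.3% of all genes tested. KDM4F, at 0 to 5 counts per library, was too low to test, and KDM4E, at 1 to 6 counts, passed the filter without a readable level.

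Of 30 writers, 8 rose, 11 fell and 11 did not pass, and their median was -0.02 on the log2 scale. Of 18 erasers tested, 9 rose, 3 fell and 6 did not pass, and their median was 0.20. These counts stand beside the 28.0% that rose and 30.9% that fell among protein-coding genes tested, as do those of each role below. The difference between writers and erasers was not tested. With scaling by library size alone, which moves the median of all genes from 0.02 to 0.08, writers became 12 rises and 10 falls and erasers 10 and 3. The plot of changes by role shows every tested gene.

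**Figure D1:**
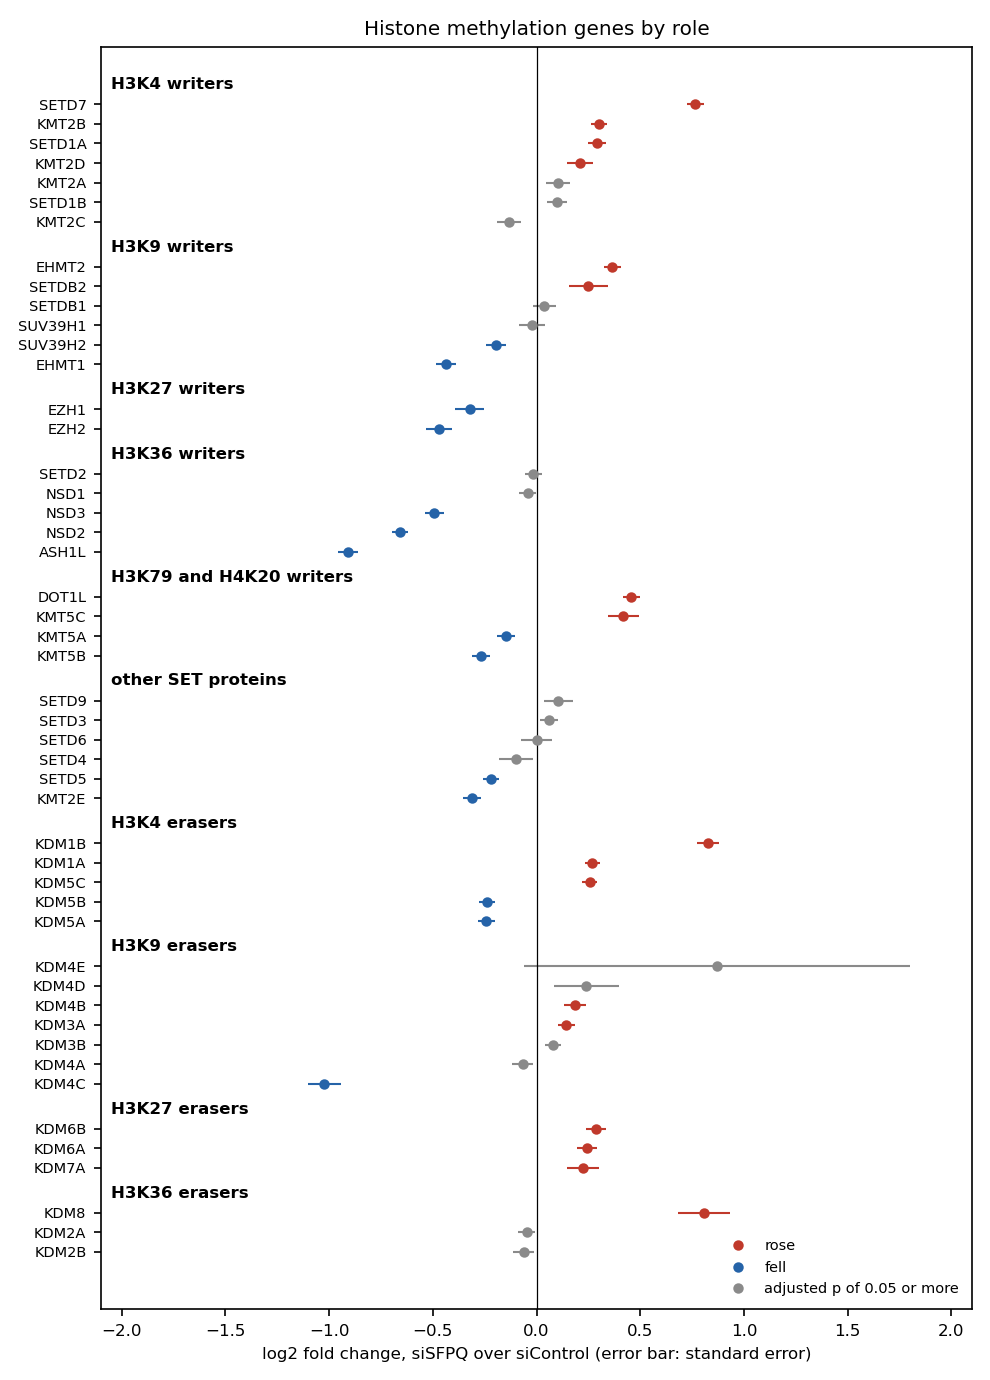
Log2 fold change of siSFPQ over siControl (x axis) for each of the 48 tested genes (y axis), grouped by role; points are edgeR estimates, bars their standard errors, and colour shows whether the gene rose, fell or had an adjusted p of 0.05 or more. Values run from -1.02 for KDM4C to 0.87 for KDM4E, whose counts were near 0, both H3K27 writers lie below 0 and all 3 H3K27 erasers above it.

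KDM4C, a Jumonji eraser of H3K9 and H3K36 methylation, had 871, 873 and 805 normalized counts in siControl and 439, 426 and 389.6 in siSFPQ. It was lower in every depleted library than in any control library. The fall was 2.03-fold (log2 fold change -1.02 ± 0.08 SE, adjusted p = 4.53e-13), the widest among the genes past the test. KDM4C (ENSG00000107077) is also the longest of the 49 genes, running over 455 kb at chr9:6720863-7175648 on the plus strand of GRCh38, introns included.

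ASH1L, a trithorax-group writer of H3K36 methylation, had 6065, 6258 and 5525 normalized counts in siControl and 3160.1, 3344 and 2996 in siSFPQ. The conditions lay far apart, with no overlap. The change was a 1.88-fold fall (log2 fold change -0.91 ± 0.05 SE, adjusted p = 1.19e-17). ASH1L (ENSG00000116539, chr1:155335268-155563162, minus strand) spans 228 kb.

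SETD7 places a single methyl group on H3K4 and also methylates proteins other than histones. Its normalized counts were 4926, 5397 and 5294 in siControl and 8820.2, 8872 and 8872 in siSFPQ. The depleted libraries were nearly equal and all above the controls, a 1.70-fold rise (log2 fold change 0.77 ± 0.04 SE, adjusted p = 1.35e-17). SETD7 (ENSG00000145391, chr4:139495941-139606699, minus strand) spans 111 kb in the annotation used here, but 50.2 kb when only its canonical transcript is taken.

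KDM8, a Jumonji protein first described as an eraser of H3K36 methylation, had 178, 211 and 174 normalized counts in siControl and 401, 300.4 and 285 in siSFPQ. Replicate 1 was the highest depleted library, and all 3 lay above the controls. The rise was 1.75-fold (log2 fold change 0.81 ± 0.12 SE, adjusted p = 1.78e-06), and between 0.66 and 0.91 when single libraries were left out. KDM8 (ENSG00000155666, chr16:27203508-27221768, plus strand) spans 18.3 kb. A lncRNA on the opposite strand shares 14.5% of its exon bases and had 95 counts in all against 1547 for KDM8.

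KDM1B, also called LSD2, is a flavin-dependent eraser of H3K4 methylation. It had 1065, 1153 and 1179 normalized counts in siControl and 2025, 2026 and 1983.5 in siSFPQ. The conditions did not overlap, and the depleted libraries differed little among themselves. The rise was 1.78-fold (log2 fold change 0.83 ± 0.05 SE, adjusted p = 6.29e-15). KDM1B (ENSG00000165097, chr6:18155329-18223854, plus strand) spans 68.5 kb.

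**Figure D2:**
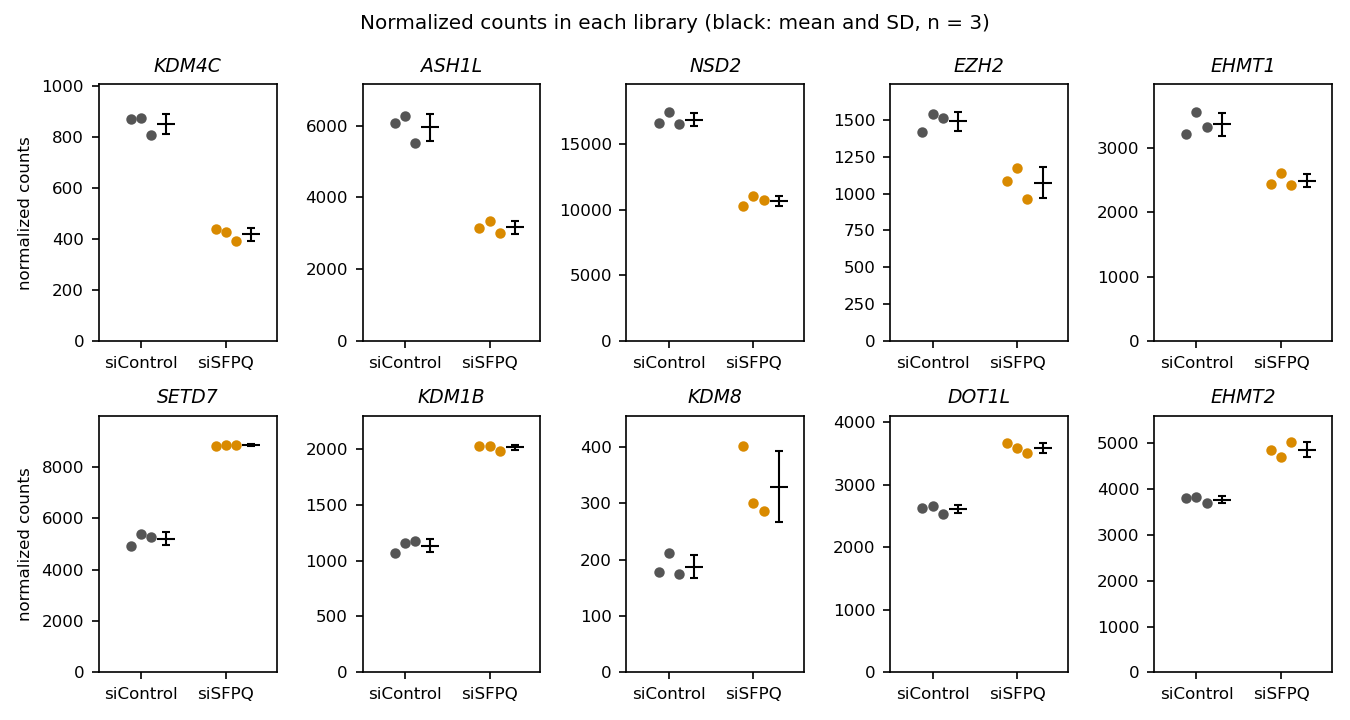
Normalized counts (y axis, from 0) in each library of siControl (grey) and siSFPQ (orange) for 10 writers and erasers; points are the 3 libraries and black marks the mean with SD. KDM4C, ASH1L, NSD2, EZH2 and EHMT1 lie lower in every siSFPQ library and SETD7, KDM1B, KDM8, DOT1L and EHMT2 higher.

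The promoters of these 5 genes are shown since they carry the widest changes. Each is 300 bases of RefSeq sequence on GRCh38.p14, from 250 bases before the RefSeq start to 50 after it, read 5′ to 3′ on the gene's strand. Capitals mark matches on either strand to motifs. The GC box was searched as GGGCGG. The ETS family site was searched as CCGGAAG. The E2F family site was searched as TTCCCGC. The CCAAT box was searched by these letters. The TATA box was searched as TATAAA. GC box and E2F letters overlap in KDM1B.
KDM4C: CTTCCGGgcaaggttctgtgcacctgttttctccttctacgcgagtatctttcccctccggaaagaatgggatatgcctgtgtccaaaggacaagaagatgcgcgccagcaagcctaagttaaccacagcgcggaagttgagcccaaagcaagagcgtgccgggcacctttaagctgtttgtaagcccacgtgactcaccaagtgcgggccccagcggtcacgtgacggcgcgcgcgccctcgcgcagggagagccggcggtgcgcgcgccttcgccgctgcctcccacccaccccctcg
ASH1L: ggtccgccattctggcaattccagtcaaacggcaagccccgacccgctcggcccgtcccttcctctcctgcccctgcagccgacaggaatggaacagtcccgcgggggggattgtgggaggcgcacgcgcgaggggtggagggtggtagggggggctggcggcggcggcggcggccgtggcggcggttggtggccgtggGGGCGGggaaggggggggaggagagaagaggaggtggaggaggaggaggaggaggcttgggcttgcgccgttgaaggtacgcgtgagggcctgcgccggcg
SETD7: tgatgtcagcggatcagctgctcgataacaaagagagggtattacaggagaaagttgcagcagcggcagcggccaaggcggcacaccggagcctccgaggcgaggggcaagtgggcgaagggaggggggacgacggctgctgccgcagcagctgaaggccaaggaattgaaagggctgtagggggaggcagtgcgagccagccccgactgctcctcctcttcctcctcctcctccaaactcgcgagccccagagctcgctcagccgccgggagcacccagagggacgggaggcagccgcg
KDM8: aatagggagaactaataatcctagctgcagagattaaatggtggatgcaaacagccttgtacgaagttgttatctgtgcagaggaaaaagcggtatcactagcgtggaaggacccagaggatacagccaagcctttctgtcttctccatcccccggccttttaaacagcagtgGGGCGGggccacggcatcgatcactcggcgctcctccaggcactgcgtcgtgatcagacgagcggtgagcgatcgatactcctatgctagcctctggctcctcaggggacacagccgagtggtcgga
KDM1B: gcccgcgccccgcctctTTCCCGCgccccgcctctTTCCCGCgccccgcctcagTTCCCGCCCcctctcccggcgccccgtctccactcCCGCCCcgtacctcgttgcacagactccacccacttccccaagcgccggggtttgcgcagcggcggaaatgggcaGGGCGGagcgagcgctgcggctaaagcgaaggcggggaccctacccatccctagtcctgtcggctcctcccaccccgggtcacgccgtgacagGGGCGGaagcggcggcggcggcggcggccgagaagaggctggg

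The windows lie at chr9:6757723-6758022 (KDM4C), chr1:155562754-155563053 (ASH1L), chr4:139556170-139556469 (SETD7), chr16:27203276-27203575 (KDM8) and chr6:18155172-18155471 (KDM1B). The KDM4C window starts from a RefSeq start 37110 bases inside the annotated gene, and that of SETD7 from one 50480 bases inside it. G and C made up 62.7%, 72.7%, 66.0%, 54.7% and 74.7% of the bases, in the same order. KDM1B held 4 GC box and 3 E2F matches, ASH1L and KDM8 a single GC box each, and SETD7 none of the motifs. Promoters of 45 of the 49 genes were matched by symbol, and 77.8% of them held a GC box against 59.2% of 15345 protein-coding promoters. The other shares were 33.3% against 36.6% for the CCAAT box, 15.6% against 14.4% for the ETS letters, 4.44% against 8.76% for the E2F letters and 0.0% against 9.63% for the TATA box. Median G and C content was 66.7% in the members and 63.0% in all promoters. A match describes letters and is no binding site.

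Of 7 H3K4 writers 4 rose and 0 fell, and the median log2 fold change was 0.21. Without siControl replicate 3 the median was 0.09 and without siSFPQ replicate 2 it was 0.15, each with 3 rises and 1 fall, and without siControl replicate 2 it was 0.32, with 6 rises and 0 falls. With edgeR 1 of the 7 was lower at an unadjusted p under 0.05, and with DESeq2 3 rose and 0 fell. Besides SETD7, the rises were KMT2B (0.30 ± 0.04 SE, adjusted p = 1.19e-07) and SETD1A (0.29 ± 0.04, adjusted p = 1.63e-06), catalytic subunits of MLL and SET1 complexes, and KMT2D, which methylates H3K4 at enhancers. The KMT2D call depends on the library and the tool. KMT2D had 5520.5, 6310.0 and 4571 normalized counts in siControl and 6185, 6652 and 6115 in siSFPQ, so the conditions overlap. Its log2 fold change of 0.21 (adjusted p = 0.00588) dropped to 0.09 (adjusted p = 0.121) without that library and to 0.15 (adjusted p = 0.0972) without siSFPQ replicate 2. With DESeq2 and all 6 libraries it stayed at 0.21 but did not pass (adjusted p = 0.255).

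KMT2A, the MLL founder enzyme, was likewise lowest in siControl replicate 3, with 3634, 4077 and 3093 normalized counts in siControl and 3882, 3899 and 3816 in siSFPQ. Its log2 fold change was 0.10 (adjusted p = 0.152), and 0.20 (adjusted p = 0.00236) without siControl replicate 2. SETD1B, a SET1 enzyme, stood at 0.10 (adjusted p = 0.114), and at 0.14 (adjusted p = 0.0343) without siControl replicate 2. KMT2C, the enhancer writer paired with KMT2D, stood at -0.13 (adjusted p = 0.0586), and at -0.21 (adjusted p = 0.00221) without siControl replicate 3 or -0.17 (adjusted p = 0.0432) without siSFPQ replicate 2. Single libraries therefore decided 4 of the 7 calls in this role. KMT2A and KMT2D have long mRNAs, with canonical forms of 16600 and 20635 bases. A further protein-coding gene on the same strand, with 1 count in all, shares 18.3% of the exon bases of KMT2A. The deviation of siControl replicate 2 from the other controls rose with canonical mRNA length over the 48 genes (Spearman's rho 0.60, across genes, which are not independent), and that of siControl replicate 3 fell with it (rho -0.38). The part of these deviations in the results was not tested.

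H3K9 writers split evenly, with 2 rises, 2 falls and 2 not past the test among 6 genes. EHMT2 (G9a) rose by 0.36 ± 0.04 on the log2 scale (adjusted p = 2.90e-09), from 3805, 3816 and 3684 normalized counts to 4846, 4696 and 5015. EHMT1 (GLP), its partner in the dimethylating complex, fell by 0.44 ± 0.05 (adjusted p = 9.95e-10), from 3219, 3568 and 3323 normalized counts to 2441, 2606 and 2422.5. Partners of the same complex thus moved in opposite directions without overlap of their libraries. SUV39H2, which trimethylates H3K9 in heterochromatin, fell by 0.19 ± 0.05 (adjusted p = 0.00126), while SUV39H1 was at -0.02 (adjusted p = 0.816). SETDB2 rose by 0.25 ± 0.09 (adjusted p = 0.0283), a call lost without siControl replicate 3 (adjusted p = 0.12), without siSFPQ replicate 2 (adjusted p = 0.198) and with DESeq2 (adjusted p = 0.0626). SETDB1, the writer recruited by KRAB zinc finger proteins through TRIM28, was at 0.04 (adjusted p = 0.638). On the opposite strand, CERS2 shares 12.9% of the exon bases of SETDB1 and had 19826 counts against 7732.

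Both H3K27 writers fell. EZH2, the main catalytic subunit of Polycomb repressive complex 2 (PRC2), had 1419, 1539 and 1512 normalized counts in siControl and 1088, 1172 and 966 in siSFPQ. EZH1, the alternative subunit, had 971, 1010.0 and 1099.9 in siControl and 877, 819 and 768 in siSFPQ. Neither gene's libraries overlapped. The log2 fold changes were -0.47 ± 0.06 (SE, adjusted p = 1.32e-07) for EZH2 and -0.32 ± 0.07 (adjusted p = 1.92e-04) for EZH1. EZH2 is known to follow cell proliferation. Of 18 proliferation genes 14 fell and 0 rose in edgeR, a share of 77.8% falling beside 30.9% of protein-coding genes tested. There and in DESeq2, 0 were higher at an unadjusted p under 0.05. Their median log2 fold change was -0.26, with MKI67 at -0.43 and RRM2 at -1.09. The part of proliferation in the fall of EZH2 was not tested.

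All 3 H3K27 erasers rose, by similar amounts. KDM6B (JMJD3) had 2427, 2706 and 2337 normalized counts in siControl and 2995, 3147 and 2976 in siSFPQ. KDM6A (UTX) had 1657, 1570 and 1624 in siControl and 1947, 1879.8 and 1915.5 in siSFPQ. KDM7A, which also acts on H3K9, had 561, 673 and 637 in siControl and 700.3, 751.5 and 732 in siSFPQ. In each gene every depleted library was above every control. Log2 fold changes were 0.29 ± 0.05 (SE, adjusted p = 8.15e-06) for KDM6B, 0.24 ± 0.05 (adjusted p = 1.18e-04) for KDM6A and 0.22 ± 0.08 (adjusted p = 0.0182) for KDM7A. The call of KDM7A was lost without siControl replicate 1 (0.15, adjusted p = 0.107) or siSFPQ replicate 2 (0.19, adjusted p = 0.0932).

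H3K36 writers fell or did not pass: 3 of 5 fell and 0 rose, at a median log2 fold change of -0.49. With edgeR or DESeq2, 0 were higher at an unadjusted p under 0.05. All 5 span 111 to 228 kb. In the class over 100 kb, 63.9% of protein-coding genes at a mean of at least 1 CPM fell and 16.1% rose. The 60.0% that fell among these writers was near that share of falls. After ASH1L came NSD2, a dimethylating enzyme, with 16596, 17391 and 16534 normalized counts in siControl and 10276.5, 10998 and 10724.5 in siSFPQ. Its libraries lay far apart, at a log2 fold change of -0.66 ± 0.04 (SE, adjusted p = 2.05e-16). Its paralogue NSD3 fell by 0.49 ± 0.05 (adjusted p = 4.50e-11). NSD1, the third paralogue, was at -0.04 (adjusted p = 0.418), and SETD2, the enzyme that trimethylates H3K36 behind RNA polymerase II, at -0.02 (adjusted p = 0.793). These 2 stood at 0.02 and 0.05 when libraries were scaled by size alone, so their sign depends on the scaling.

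Among H3K36 erasers KDM8 was the single rise of 3. KDM2A, which binds unmethylated CpG DNA, was at -0.05 (adjusted p = 0.35) and KDM2B, part of a Polycomb repressive complex 1 variant, at -0.06 (adjusted p = 0.35). Scaled by library size alone these were 0.02 and 0.00.

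H3K79 and H4K20 writers divided into 2 rises and 2 falls. DOT1L, the H3K79 writer, had 2631, 2662 and 2532 normalized counts in siControl and 3667.5, 3582 and 3499.5 in siSFPQ, a log2 fold change of 0.46 ± 0.04 (SE, adjusted p = 4.72e-11). KMT5C, which writes higher methylation states of H4K20, had 594, 571 and 580.5 in siControl and 808, 779.9 and 748 in siSFPQ and rose by 0.42 ± 0.07 (adjusted p = 1.22e-05). Its paralogue KMT5B fell by 0.27 ± 0.04 (adjusted p = 2.42e-06), from 3658, 3772 and 3700 to 3009.5, 3216 and 3022. KMT5A, which places the first methyl group on H4K20 during the cell cycle, fell by 0.15 ± 0.04 (adjusted p = 0.00488). Its processed pseudogenes KMT5AP1 and KMT5AP2 had 8 to 34 counts per library, so few reads lay with these copies. The KMT5A call was lost without siSFPQ replicate 1 (-0.11, adjusted p = 0.0704) and with scaling by library size alone (-0.08, adjusted p = 0.109).

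H3K4 erasers all passed the test, 3 upwards and 2 downwards. KDM1A (LSD1), the flavin-dependent enzyme of the CoREST complex, rose by 0.27 ± 0.04 on the log2 scale (adjusted p = 1.40e-07), from 7882, 7881 and 7802 normalized counts to 9322.5, 9539.7 and 9531. KDM5C, a Jumonji eraser encoded on the X chromosome, rose by 0.26 ± 0.04 (adjusted p = 4.71e-07). KDM5A, first known as a retinoblastoma-binding protein, and KDM5B, both Jumonji erasers of H3K4 trimethylation, fell by 0.24 ± 0.04 each (adjusted p = 9.92e-06 and 5.98e-06). KDM5C thus moved against KDM5A and KDM5B, while KDM1A and KDM1B both rose, KDM1B by more.

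Of 7 H3K9 erasers tested, 2 rose, 1 fell and 4 did not pass. Beside KDM4C, KDM4B rose by 0.19 ± 0.05 (adjusted p = 0.00524), a call lost without siControl replicate 1 (0.12, adjusted p = 0.06). KDM3A, which removes H3K9 mono- and dimethylation, rose by 0.14 ± 0.04 (adjusted p = 0.00585) and its paralogue KDM3B was at 0.08 (adjusted p = 0.0918). KDM3B passed when scaled by library size alone (0.14, adjusted p = 0.00185), with edgeR's own expression filter (0.09, adjusted p = 0.0452) and among protein-coding genes alone (0.09, adjusted p = 0.0313). KDM4A was at -0.07 (adjusted p = 0.305). An unnamed protein-coding gene on the same strand shares 40.2% of the exon bases of KDM4A and was at 0 counts, which leaves the level of KDM4A uncertain. KDM4D was at 0.24 (adjusted p = 0.233), and at 0.41 (adjusted p = 0.0373) without siControl replicate 1. KDM4E, the shortest of the 49 genes at 2.34 kb, had 5, 2 and 1 counts in siControl and 4, 5 and 6 in siSFPQ, and its fitted value of 0.87 has an SE of 0.93.

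SET proteins of other or unsettled substrate gave 2 falls and 0 rises among 6, with 0 higher at an unadjusted p under 0.05 in edgeR and DESeq2. KMT2E, an MLL-family protein without clear methyltransferase activity, fell by 0.31 ± 0.04 (adjusted p = 2.14e-07), and SETD5 fell by 0.22 ± 0.04 (adjusted p = 1.09e-05). SETD3, which methylates actin on histidine, SETD4, SETD6 and SETD9 ranged from -0.10 to 0.10 with no adjusted p under 0.05. Scaled by library size alone, SETD3 was at 0.12 (adjusted p = 0.0138) and SETD9 at 0.17 (adjusted p = 0.0487). CNOT1, on the opposite strand, shares 17.5% of the exon bases of SETD6 and had 74847 counts against 3954. How the strand was set in counting is not given in the sources used here.

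Per length of mRNA the genes covered a wide range of levels. KDM1A had 55.7 ± 0.33 CPM per kb of canonical mRNA in siControl (SD, n = 3), NSD2 48.7 ± 1.38 and SETD5 38.7 ± 1.71, with no overlap of mean and SD between these neighbours. In siSFPQ, KDM1A was at 67.1 CPM per kb, NSD2 at 30.8 and SETD5 at 33.2, and KDM5C, at 34.8, then came second to KDM1A. At the low end, KDM7A (1.48 ± 0.14), SETDB2 (1.27 ± 0.09) and KDM4D (0.811 ± 0.15) followed KDM8 (1.69 ± 0.18), whose range met that of KDM7A. EZH2 was above EZH1 in siControl (12.3 ± 0.52 against 4.85 ± 0.31 CPM per kb), and 8.86 against 3.88 in siSFPQ. KDM1A was 55.7 against 5.45 for KDM1B in siControl, and 67.1 against 9.69 in siSFPQ. The order depends on the length used: with the summed exons of all transcripts NSD2 ranked 1 and KDM1A 10 of 49. By this measure EZH1 was above EZH2, at 3.21 against 3.02 CPM per kb in siControl and 2.57 against 2.18 in siSFPQ. KDM1A was at 9.37 against 4.41 for KDM1B in siControl, and 11.3 against 7.83 in siSFPQ.

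Log2 fold changes were lower in members with a longer span. Spearman's rho of the log2 fold change with gene span, introns included, was -0.48 over the 48 tested genes, -0.49 over 30 writers and -0.62 over 18 erasers. It was -0.28 over 16477 protein-coding genes tested. The values of members and erasers include KDM4E, which had no readable level. At a mean of at least 1 CPM, which leaves KDM4E out, the rho was -0.45 over 47 members and -0.30 over 12958 protein-coding genes. These are descriptions across genes that share the same 6 libraries. Within the members, span went with canonical mRNA length (rho 0.52) and with mean CPM (rho 0.41). With summed exon length in place of span the rho fell to -0.29, and with the longest intron it was -0.51. Set against the control mean, the single siSFPQ libraries gave -0.45, -0.40 and -0.43, and each control library set against the other controls gave -0.04, 0.31 and -0.07.

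Of 19 genes up to 50 kb, 8 rose and 3 fell at a median log2 fold change of 0.21, and of 14 genes between 50 and 100 kb, 6 rose and 4 fell at 0.09. At a mean of at least 1 CPM, which leaves KDM4E out, the median up to 50 kb was 0.16. Of 15 genes over 100 kb, 3 rose and 7 fell at a median of -0.13. Protein-coding genes at a mean of at least 1 CPM had medians of 0.05, -0.03 and -0.35 in the same classes, where 36.8%, 31.2% and 16.1% rose and 26.2%, 38.1% and 63.9% fell. The long members were thus in the direction of long genes at large, with a median nearer to 0. That median was -0.08 without siControl replicate 2, -0.21 without siControl replicate 3 and -0.07 when scaled by library size alone. By canonical transcript span the classes held 19, 15 and 14 members with medians of 0.21, 0.10 and -0.19, as SETD7 moved to the middle class.

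The classes compared here hold protein-coding genes at a mean of at least 1 CPM. Within the class over 100 kb, 74.0% of the other protein-coding genes had a higher log2 fold change than KDM4C and 71.4% a higher one than ASH1L. The shares were 63.7% for NSD2, 56.8% for NSD3, 54.4% for EHMT1, 47.6% for KMT2E and 42.8% for KDM5A. The falls of NSD3, EHMT1, KMT2E and KDM5A thus stood near the middle of the class. SETD7 was higher than 96.7% of the class, KDM6A than 87.2% and KDM4B than 85.1%, the 3 rises among long members. By its canonical transcript SETD7 spans 50.2 kb and is outside this class, and 2 of 14 members over 100 kb by that measure rose. In the class from 50 to 100 kb, EZH2 had 85.0% of genes above it, while KDM1B was higher than 94.6% and DOT1L than 86.8%. In the class up to 50 kb, EZH1 had 86.9% above it and KDM8 was higher than 93.9%.

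Paralogue pairs compare related proteins encoded over different spans. For each of 15 pairs the log2 ratio of counts per kb of exon was taken in each library and compared between conditions with a two-sided exact permutation test, which cannot give a p under 0.1 with 3 against 3 libraries. The member with the longer span was relatively lower after knock-down in 12 of 15 pairs. In 9 pairs the libraries separated fully (exact permutation p = 0.1, adjusted over 15 pairs 0.167), with the longer member lower in 6 and higher in 3.

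The widest shift was between KDM4A and KDM4C, whose log2 ratio went from 2.17 ± 0.12 (SD, n = 3) in siControl to 3.13 ± 0.13 in siSFPQ, a difference of 0.96 ± 0.10 (SE). EHMT1 over EHMT2 went from -1.77 ± 0.07 to -2.57 ± 0.10, a difference of -0.80 ± 0.07. KMT5B over KMT5C went from 1.68 ± 0.05 to 0.99 ± 0.08, a difference of -0.69 ± 0.05. In the latter 2 pairs one paralogue rose and the other fell. KMT2C over KMT2D differed by -0.35 ± 0.06, KMT2A over KMT2B by -0.19 ± 0.09 and SETD1A over SETD1B by 0.19 ± 0.04.

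The 3 pairs with the longer member higher were KDM1A and KDM1B (first over second, -0.56 ± 0.05), SETDB1 and SETDB2 (-0.21 ± 0.09), and NSD2 and NSD3 (-0.17 ± 0.05), pairs with span ratios of 1.07, 1.32 and 1.02. Among pairs with the longer member lower, the span ratio was 1.05 for SETD1A and SETD1B and 1.09 for KDM2A and KDM2B. KDM6A is 11.6 times as long as KDM6B, yet their log2 ratio differed by -0.05 ± 0.09 between conditions (exact permutation p = 0.6). Differences of KDM5A over KDM5B (-0.0018 ± 0.034, exact permutation p = 1) and KDM2A over KDM2B (0.01 ± 0.03, p = 0.7) were under their errors. EZH1 over EZH2 (0.15 ± 0.08), SUV39H1 over SUV39H2 (0.17 ± 0.10) and KDM3A over KDM3B (0.06 ± 0.03) had an exact permutation p of 0.2.

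**Figure D3:**
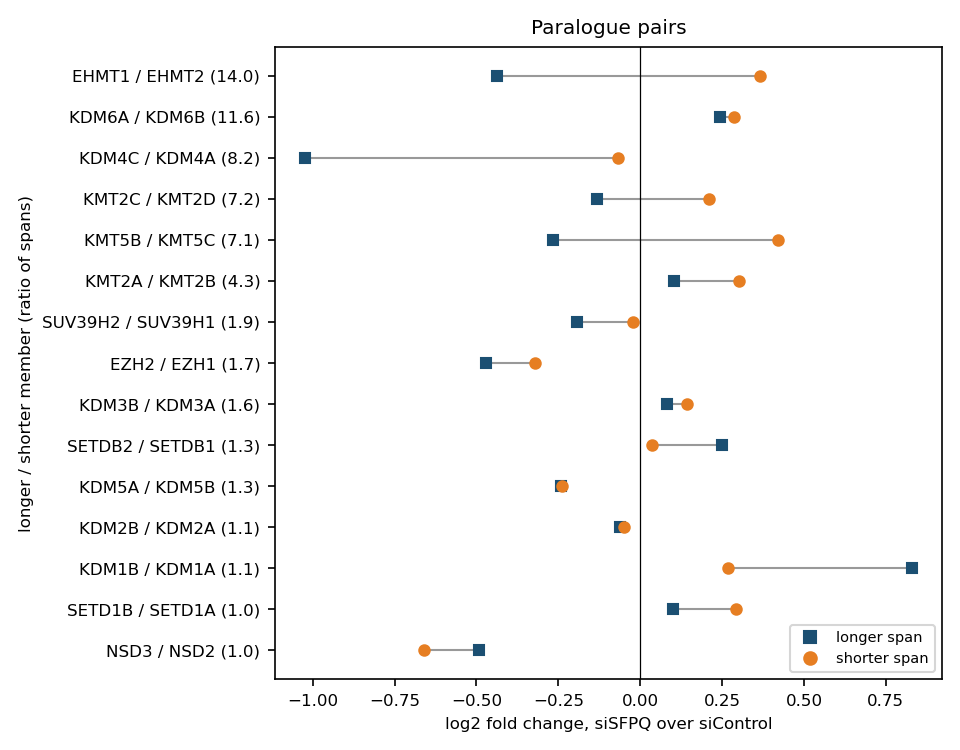
Log2 fold change of siSFPQ over siControl (x axis) of the longer (square) and shorter (circle) member of 15 paralogue pairs (y axis), ordered by the ratio of their spans, given in brackets. EHMT1 and EHMT2 and KMT5B and KMT5C lie on opposite sides of 0, and KDM6A lies beside KDM6B in spite of a span ratio of 11.6.

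The enzymes act in complexes, and 60 of 61 listed partners and further related enzymes were tested. Of these 13 rose (21.7%), 25 fell (41.7%) and 22 did not pass, at a median log2 fold change of -0.06. Among protein-coding genes tested 28.0% rose and 30.9% fell, and the counts of the groups that follow stand beside these shares. The falls included genes spanning over 100 kb, among them RCOR1, PHF21A, JARID2, AEBP2, MLLT3, MLLT10, JMJD1C and MECOM. DPY30 and ZNF644, also over 100 kb, rose, and NCOA6, ATF7IP, PPHLN1 and PRDM16 did not pass. In that class 63.9% of protein-coding genes at a mean of at least 1 CPM fell and 16.1% rose. The part of span in these falls was not tested. With scaling by library size alone 21 of the 60 genes rose and 20 fell, so the balance of the list depends on the scaling. In the PRC2 group 7 of 10 fell and 2 rose. SUZ12, a core subunit (-0.35 ± 0.04 SE, adjusted p = 3.26e-09), AEBP2 (-0.31 ± 0.05) and JARID2 (-0.29 ± 0.05) fell together with RBBP4, RBBP7, MTF2 and PHF19. EED, the subunit that reads H3K27 trimethylation, rose by 0.25 ± 0.05 (adjusted p = 2.43e-04), as did PHF1 (0.21 ± 0.05). PRC2 gave 6 falls and 3 rises when libraries were scaled by size alone. Its falls also numbered 6 without siControl replicate 2 or 3, or without siSFPQ replicate 1 or 3. RBBP7 was close to the limit, at -0.09 ± 0.04 (adjusted p = 0.0456).

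In the LSD1-CoREST group, the scaffold RCOR1 fell by 0.96 ± 0.05 (adjusted p = 5.53e-17) and PHF21A, which reads unmethylated H3K4, by 0.66 ± 0.05 (adjusted p = 9.05e-14). RCOR2, a paralogue of RCOR1, rose by 0.57 ± 0.13 (adjusted p = 5.45e-04), and the other 5, HDAC1 and HDAC2 among them, ranged from -0.06 to 0.08 without passing. Scaled by library size alone, 4 of the group's 8 genes rose and 2 fell, and with DESeq2, or without siControl replicate 3, 2 rose and 2 fell. The eraser KDM1A rose while its scaffold RCOR1 fell. Of 12 partners of MLL and SET1 enzymes 6 rose and 2 fell. The widest rises were PAGR1 (0.47 ± 0.10, adjusted p = 2.01e-04) and PAXIP1 (0.43 ± 0.11, adjusted p = 0.00114), both partners of KMT2C and KMT2D. The falls were PSIP1 (-0.46 ± 0.04, adjusted p = 1.01e-11) and WDR5 (-0.25 ± 0.04, adjusted p = 1.97e-06). Without siSFPQ replicate 2 the rises in this group numbered 4.

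Of 4 partners of DOT1L, 3 fell (MLLT1, MLLT3 and MLLT10, from -0.36 to -0.17) and MLLT6 rose (0.38 ± 0.04, adjusted p = 1.84e-10). Of 10 genes of H3K9 silencing 1 rose and 2 fell, with CBX1, a heterochromatin protein, at -0.33 ± 0.04 (adjusted p = 4.14e-09). Scaled by library size alone, 4 of the 10 rose and 1 fell, and 1 rose and 1 fell without siControl replicate 2, siSFPQ replicate 1 or siSFPQ replicate 3. TRIM28 was at 0.00 (adjusted p = 0.948). Of 16 tested SET and demethylase genes outside the naming rule 2 rose (12.5%) and 9 fell (56.2%), or 6 fell without siSFPQ replicate 1. The widest fall was SMYD3, a SET and MYND domain protein spanning 758 kb, at -1.80 ± 0.10 (adjusted p = 2.17e-16).

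**Figure D4:**
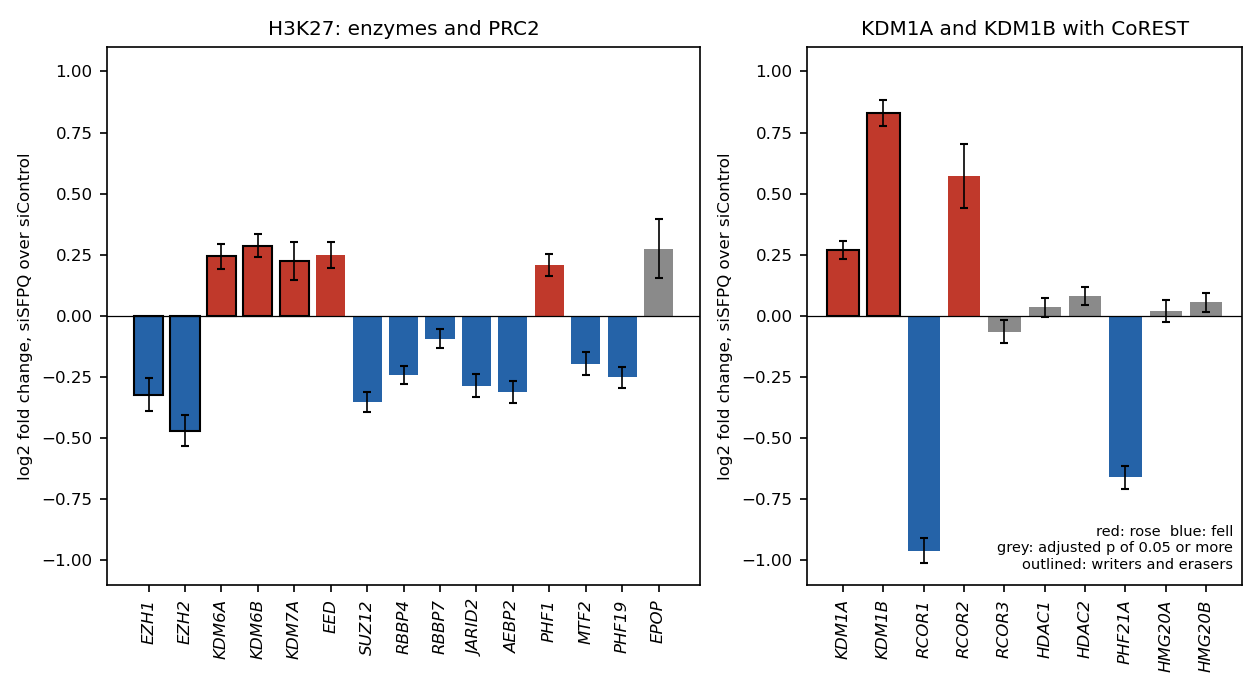
Log2 fold change of siSFPQ over siControl (y axis, bars from 0, error bars SE) for H3K27 enzymes with the PRC2 group (left) and for KDM1A and KDM1B with the CoREST group (right); outlined bars are writers and erasers, red rose, blue fell and grey had an adjusted p of 0.05 or more. EZH1, EZH2 and 7 PRC2 partners lie below 0 and the H3K27 erasers above it. RCOR1 lies at -0.96, KDM1A, the enzyme of the CoREST complex, at 0.27 and KDM1B at 0.83.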

How the data were processed

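The authors checked reads with FastQC, aligned them with STAR 2.7.9a to GRCh38 (Ensembl) and deposited raw read counts per gene for 3 libraries of each condition, made with a stranded TruSeq kit and sequenced as paired ends. The strand setting of the counting is not given in the sources used here.

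The quasi-likelihood test of edgeR 4.0.16 (R 4.3.3, TMM, no covariates, Benjamini-Hochberg over 29022 genes) was run on genes with a total of at least 10 counts. Normalized counts are counts divided by the effective library size, scaled to the geometric mean over libraries. The test was tried on simulated counts. Spans and exons came from GENCODE 44, which held 60463 of the 60664 identifiers. No pair of libraries was alike within sampling noise.

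The members and the gene lists (roles, partners, proliferation, cell type markers, paralogue pairs) were chosen with earlier results of these data known. Genes named are SFPQ, members past the test with an absolute log2 fold change of at least 0.75, each role's largest rise and fall, pair members, the longest and shortest gene, the other members by log2 fold change and, of the partners, the 3 largest rises and falls. Further partners were named after their values were seen. Alternatives were other filters, RLE and library-size scaling, DESeq2 1.42.0, a replicate block, protein-coding genes alone, single libraries left out, a mean of at least 1 CPM, and other limits and measures of length, of which canonical transcript span, longest intron and the exon length for levels were chosen after seeing the data.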

Additional observations from a re-analysis of the deposited data

How the results depend on the processing

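The members that rose numbered 14 to 22 and those that fell 13 to 15 over all alternatives, and 0 passed the limit of 1.5 under each. Scaling by library size alone moved the median log2 fold change to 0.044 in writers, 0.27 in erasers and 0.27, 0.16 and -0.069 in the 3 span classes, the cofactors that rose to 21, and KDM2A to 0.015, KDM2B to 0.0017, NSD1 to 0.020, SETD2 to 0.047 and SUV39H1 to 0.042, none past the test. The rho with span was -0.45 with filterByExpr and with a mean of at least 1 CPM, -0.51 with no filter and with the longest intron, and -0.29 with exon length. The shortest class had a median of 0.16 with filterByExpr and at 1 CPM, classes of equal size by exon length gave 0.17 and 0.059 in the lower classes, and limits of 30 and 80 kb gave 0.26, 0.14 and -0.062. Genes past 1.5 upwards were 967 with filterByExpr, and 581 upwards and 830 downwards in protein-coding genes alone, where fewer genes were tested.

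Leaving out single libraries gave medians from 0.14 to 0.22 in erasers, 0.15 to 0.24, 0.066 to 0.13 and -0.21 to -0.076 in the span classes, and a rho from -0.48 to -0.45. The sign of SETD2 (-0.053 to 0.020), SETD6 (-0.029 to 0.047), NSD1 (-0.075 to 0.0051) and SUV39H1 (-0.067 to 0.024) changed there, without passing. SETD6 was also at -0.0099 with no filter. Libraries with the same replicate number share only the number (correlations of deviations -0.03, 0.07 and 0.04 over 15641 genes, and not every library correlated best with its own number). With the replicate block 18 members rose and 15 fell, KMT2A (0.11, adjusted p = 0.0122, edgeR) and KMT2C (-0.13, adjusted p = 0.0189) passed and SETD6 was at -2.18e-05. KMT2C passed with no filter (-0.14, adjusted p = 0.0189). The causes were not tested. At 43469321 counts or more per library, depth limits KDM4D, KDM4E and KDM4F.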
